A study of Mus musculus with 6 samples.

Results

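The genes described here are Kit, its ligand Kitl and the other receptors of the class III family of receptor tyrosine kinases, Pdgfra, Pdgfrb, Csf1r and Flt3. They were found by matching their symbols to the symbols that the platform annotation gives the probes. Of the 6 genes, 5 were measured, by 6 of the 38467 probes of the array. Kitl had 2 probes and Kit, Pdgfra, Pdgfrb and Flt3 had 1 each. No probe carried the symbol Csf1r, so that gene is not analysed here.

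The samples were pieces of gastric antrum, the part of the stomach before the pylorus, from mouse littermates at postnatal day 14. The animals labelled as mutant were homozygous for KitK641E:Neo, a germline allele with the K641E substitution in Kit that carries the label Neo, and their wild-type littermates were KitWT/WT. In each of 3 pairs the mutant antrum was compared with the wild-type antrum on 2 arrays of 70-base probes with the dyes exchanged, which gave 6 arrays and 3 replicates. Since the allele is in the germline, all cells of the mutant animals carry it, and the antral RNA is a mixture of all cell types of the wall and mucosa.

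Class III receptors have an extracellular part of immunoglobulin-like domains and an intracellular kinase that is split by an insert. Each is switched on when a dimeric ligand joins receptor molecules into a pair. In the gut wall Kit marks the interstitial cells of Cajal, pacemakers of the muscle, which need Kit signalling to develop and to persist, while smooth muscle and neurons supply Kit ligand. Kit is also made by mast cells and melanocytes. Pdgfra marks fibroblast-like cells that lie beside the Cajal cells, Pdgfrb marks pericytes and fibroblasts, Csf1r macrophages and Flt3 dendritic cells and their precursors. Activating mutations of KIT, or less often of PDGFRA, drive most human gastrointestinal stromal tumours.

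Each value below is a log2 ratio of the mutant over the wild-type antrum, with the sign of the arrays that held the mutant in Cy3 turned. The sources used here do not state the order of the deposited ratio. It was taken as red over green, and the direction is called likely. It rests also on Spry4 and Tpbg, raised in the mutant according to the title of the paper on this study: their pair means were 0.46, 2.17 and 1.51 for Spry4 and 0.82, 2.54 and 2.53 for Tpbg. A ratio gives no level, so which of these genes was more abundant, and whether markers of the antrum were present at all, cannot be read from these values. With the probe position in the transcript unknown and no part of Kit deleted by the labels, the Kit ratio is no check of the genotype labels.

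The pairs differed in the ratios of liver, pancreas and Y-linked genes. Whether the pieces held tissue of other organs was not tested. The median of 12 liver genes was -0.15 in pair 1, against 2.75 and 2.04 in pairs 2 and 3, and that of 5 genes of the exocrine pancreas was -2.49, -0.08 and 0.02. The carboxyl ester lipase gene Cel, for example, had -2.27, -0.08 and -0.24, and the elastase gene Cela2a had -2.61, -0.22 and -0.08. Of the Y-linked genes, Eif2s3y had -0.03, -0.04 and -5.06 and Kdm5d 0.22, -0.15 and -1.95, so the 2 animals of pair 3 differed in Y-linked transcripts while those of the other pairs did not differ to that degree. The median of 3 Y-linked genes over the pairs was -0.63.

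Kit was higher in the mutant antrum in 2 of the 3 pairs and close to 0 in the other. Kit, the receptor that carries the mutation, had log2 ratios of -0.01 and -0.04 on the arrays of pair 1, 1.75 and 2.03 on those of pair 2, and 0.68 and 0.95 on those of pair 3, with the mutant in Cy5 first. The arrays of different pairs did not overlap, and the 2 arrays of a pair lay within 0.27 of each other, against 1.91 between the highest and the lowest pair mean. The pair means were -0.02, 1.89 and 0.81.

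Averaged over pairs, Kit had a log2 ratio of 0.89 ± 0.96 (SD, n = 3), a 1.86-fold difference on base 2, with a limma standard error of 0.40 and a 95% interval from -0.25 to 2.04. It did not pass the limma test over 30649 features (adjusted p = 0.923, Benjamini-Hochberg, two-sided; unadjusted p = 0.0946). The exact sign-flip permutation test over the pairs gave a two-sided p of 0.5, and the smallest p that 3 pairs allow is 0.25. Kit's mean was 1.35 without pair 1 and 0.40 without pair 2. Only 0.489% of all features had a mean at or above that of Kit, and 0.806% had an SD over pairs as large or larger. Within pairs, 60.1% of features lay at or above Kit in pair 1, 0.336% in pair 2 and 1.03% in pair 3. In a bulk sample, more Kit-bearing cells and more Kit RNA in each cell cannot be told apart.

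**Figure D1:**
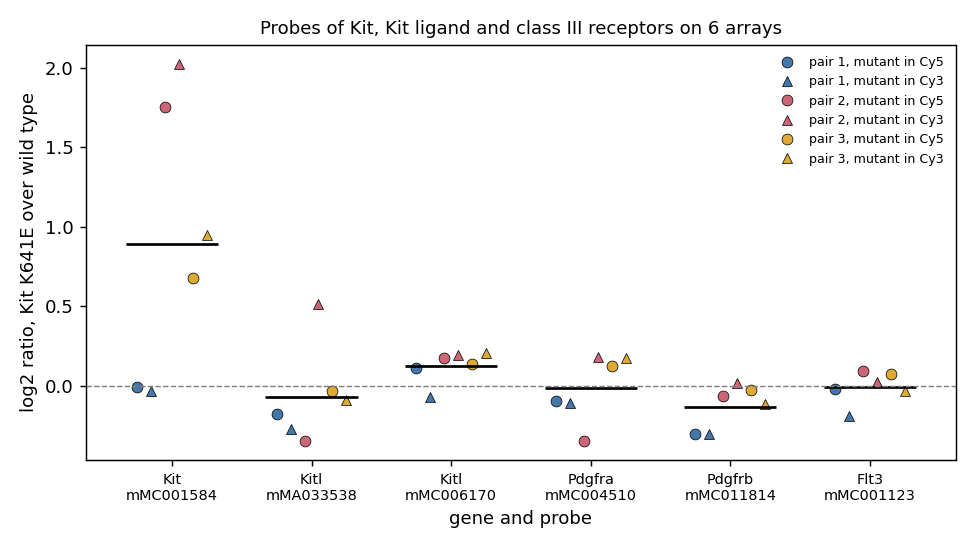
Log2 ratio of the Kit K641E over the wild-type antrum for each of the 6 probes (x axis) on each of the 6 arrays; colours are littermate pairs, circles have the mutant in Cy5, triangles in Cy3, and the black line is the mean over pairs. Kit spreads from -0.04 in pair 1 to 2.03 in pair 2, while every other probe stays between -0.35 and 0.51.

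None of the members passed over all features, with 0 of 5 at an adjusted p under 0.05 and 0 of 5 at an unadjusted p under 0.05 by limma. With the 6 arrays fitted with the pair as a random block, 0 of 5 passed after adjustment and 1 of 5, Kit, had an unadjusted p under 0.05 (0.0255; adjusted p = 0.556), where 4.35% of all features were higher at that threshold. That fit takes the same within-pair correlation for all features, while Kit's arrays lay close within pairs and far apart between them. The standard error of Kit was 0.31 there, against 0.40 over pair means, so the p of 0.0255 can be too small. In the fit over pair means 0.00653% of all features were called higher and 0.0% lower, and at the unadjusted threshold 2.74% were higher and 2.16% lower. Of the 5 members, 2 had a mean above 0, as had 52.1% of all features, and 0 had one sign on all 6 arrays (3.87% of features were above 0 and 3.45% below 0 on all 6). A mean of 1 or more was found for 0 of 5 members and 0.392% of features, and a mean of -1 or less for 0 of 5 members and 0.0424% of features. The median over the members was -0.01, beside 0.00 over all features. In pair 1 the median over the members was -0.10, beside 0.003 over all features. Kit was at -0.02 there, and 60.1% of features lay at or above it.

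Kitl, the stem cell factor that activates Kit, stayed near 0. Its log2 ratios, as means of 2 probes, were -0.04 and -0.17 on the arrays of pair 1, -0.09 and 0.35 on those of pair 2, and 0.05 and 0.06 on those of pair 3. The mean was 0.03 ± 0.12 (SD, n = 3), with a 95% interval from -0.15 to 0.20, or 0.901-fold to 1.15-fold (limma adjusted p = 0.966). The arrays of pair 2 spanned both values of pair 3 and overlapped pair 1, which lay below pair 3.

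The 2 probes of Kitl did not give the same sign. Probe mMC006170 had pair means of 0.02, 0.19 and 0.17 and probe mMA033538 had -0.23, 0.08 and -0.07. On the arrays of pair 2 the probe mMA033538 read -0.35 with the mutant in Cy5 and 0.51 with the mutant in Cy3, the widest gap among the 6 probes, whereas mMC006170 read 0.18 and 0.20. No direction can be given for Kitl.

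With the 2 Kitl probes averaged, Kit exceeded Kitl in every pair, by 0.08 in pair 1, 1.76 in pair 2 and 0.76 in pair 3. In pair 1 this depended on the averaging, since the probe mMC006170 alone had 0.02, above Kit at -0.02. The 0.08 was also smaller than the gap of 0.13 between the 2 arrays of pair 1 for Kitl. The mean difference of the log2 ratios was 0.87 ± 0.84 (SD, n = 3), and was 0.42 without pair 2. The exact sign-flip permutation test of the difference, with the probes averaged, gave a p of 0.25, the smallest that 3 pairs allow. It was 0.25 again when adjusted over the 4 differences between Kit and the other measured members.

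Pdgfra, the receptor for the platelet-derived growth factors A and C among others, is the protein-coding gene next to Kit on mouse chromosome 5. Its arrays read -0.10 and -0.11 for pair 1, -0.35 and 0.18 for pair 2, and 0.13 and 0.17 for pair 3. The arrays of pair 2 lay on both sides of 0, so that the gap between dyes there, 0.53, was wider than the 0.25 between pair means. The mean was -0.01 ± 0.14 (SD, n = 3), with a 95% interval from -0.21 to 0.18 (limma adjusted p = 0.985). Kit exceeded Pdgfra by 0.08, 1.98 and 0.66 in the 3 pairs, a mean difference of 0.91 ± 0.97 (SD, n = 3; 0.37 without pair 2; exact sign-flip permutation p = 0.25).

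The other protein-coding genes around Kit had smaller mean ratios than Kit, between -0.53 and 0.12. Kdr, the main receptor for vascular endothelial growth factor and the neighbour on the other side, had -0.68, 0.29 and -0.03, lowest in pair 1 and highest in pair 2 as Kit was. Gsx2, a homeobox gene, had 0.06, 0.07 and 0.01 and Chic2 0.13, -0.19 and 0.20. The highest of these means, 0.12, was that of Lnx1, which is not in the list of 6 neighbours counted next. Of these 6 neighbours besides Pdgfra, 4 were above 0 on average (52.1% of all features) and 0 passed over all features. At an unadjusted p under 0.05, 1 of the 6 was lower (2.16% of all features). That gene, Srd5a3, a reductase needed for dolichol synthesis, had -0.60, -0.46 and -0.54, below 0 on all 6 arrays (limma adjusted p = 0.807), although its 2 probes gave means of -0.88 and -0.18. The median of the 6 listed neighbours was 0.03. Tmem165 had 0.06, 0.16 and 0.02.

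The sequences before the starts of Kit, its ligand gene Kitl and its chromosomal neighbour Pdgfra are shown as a description. Whether the sequences bear on the ratios was not tested. The sequences are 250 bases each from RefSeq, build GRCm38.p6, plus strand, 5′ to 3′: chr5:75574737-75574986 for Kit, chr10:100015571-100015820 for Kitl and chr5:75152001-75152250 for Pdgfra. Capitals mark GGGCGG, the core bound by Sp1, CCGGAA, a core bound by ETS factors, and TATAAA, the TATA box, on either strand.
Kit: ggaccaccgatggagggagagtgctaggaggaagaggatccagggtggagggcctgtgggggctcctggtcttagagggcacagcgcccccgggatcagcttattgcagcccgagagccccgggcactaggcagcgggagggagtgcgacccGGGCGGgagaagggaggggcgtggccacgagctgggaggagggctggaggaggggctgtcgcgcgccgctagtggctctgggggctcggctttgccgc
Kitl: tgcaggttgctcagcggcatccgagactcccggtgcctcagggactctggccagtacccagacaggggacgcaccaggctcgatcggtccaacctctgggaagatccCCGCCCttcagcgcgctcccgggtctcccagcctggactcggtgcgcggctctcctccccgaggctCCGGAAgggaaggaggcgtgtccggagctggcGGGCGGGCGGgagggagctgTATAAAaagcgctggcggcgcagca
Pdgfra: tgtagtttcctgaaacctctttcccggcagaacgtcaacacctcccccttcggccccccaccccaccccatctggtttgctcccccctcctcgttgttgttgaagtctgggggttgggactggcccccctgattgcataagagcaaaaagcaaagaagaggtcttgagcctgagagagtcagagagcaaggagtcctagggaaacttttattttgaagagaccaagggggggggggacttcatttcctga
Kit held 1 copy of GGGCGG and none of the others, and 70.8% of its bases were G or C. Kitl held 3 copies of GGGCGG, of which 2 overlap, with 1 CCGGAA and 1 TATAAA, at 69.2% G or C. Pdgfra held none of the 3, at 54.4% G or C, beside a median of 52.4% over 32851 mouse promoters of that length. In those promoters GGGCGG was found in 32.7%, CCGGAA in 12.0% and TATAAA in 12.4%. RefSeq lists 2 nearby starts for Kit, and the one farther upstream was taken. A match of letters is a description of the sequence and shows no binding.

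Pdgfrb, the receptor for the platelet-derived growth factors B and D, was the member with the lowest mean. Its arrays read -0.31 and -0.31 for pair 1, -0.07 and 0.02 for pair 2, and -0.03 and -0.12 for pair 3, so it was below 0 on 5 of 6 arrays. Pair 1 stood below the other pairs without overlap. The mean was -0.13 ± 0.15 (SD, n = 3), a 95% interval from -0.34 to 0.08, or 0.788-fold to 1.05-fold (limma adjusted p = 0.923). Without pair 1 it was -0.05.

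Flt3, the receptor for Flt3 ligand, had -0.02 and -0.19 in pair 1, against 0.09 and 0.02 in pair 2 and 0.07 and -0.04 in pair 3. The arrays of pair 2 lay above those of pair 1, and pair 3 overlapped both. The mean was -0.01 ± 0.09 (SD, n = 3), the smallest SD among the members, with a 95% interval from -0.16 to 0.14 (limma adjusted p = 0.984). Kit exceeded Pdgfrb by 1.03 ± 0.82 and Flt3 by 0.91 ± 0.88 (SD, n = 3), with an exact sign-flip permutation p of 0.25 for each. In order of their means the members were Kit, Kitl, Flt3, Pdgfra and Pdgfrb. The ranges of the pair means of the last 4 overlapped each other. Kit's pair mean in pair 1 lay within the ranges of Kitl, Flt3 and Pdgfra, and those in pairs 2 and 3 lay above all pair means of the other members.

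Among the other ligands of the family, all 7 listed were measured and 0 passed over all features. Their median log2 ratio was -0.10, 3 were above 0 and 4 below 0, and 1 had an unadjusted p under 0.05. That was Pdgfd, a ligand of Pdgfrb, with -0.19, -0.11 and -0.22 in the 3 pairs and a mean of -0.17 ± 0.04 (limma SE, n = 3; adjusted p = 0.923). It was below 0 on all 6 arrays, as was Il34, a ligand of Csf1r, with -0.11, -0.32 and -0.08.

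Csf1, the other ligand of Csf1r, read 0.15 and -0.74 on the 2 arrays of pair 1, 0.31 and 0.36 on those of pair 2, and 0.21 and 0.16 on those of pair 3. Its mean of 0.08 therefore rests in part on 1 array on which it lay far below the rest. Pdgfa, a ligand of Pdgfra, had 0.07, -0.15 and -0.58, and Pdgfc, another, had -0.03, -0.31 and 0.02. Pdgfb, which binds both platelet-derived growth factor receptors, had -0.05, -0.04 and 0.11. Flt3l, the ligand of Flt3, had -0.004, 0.01 and 0.02.

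The receptors for vascular endothelial growth factors, the nearest kin of the class III family, had a median of -0.14, and 0 of 3 passed over all features. Flt1 had -0.50, 0.15 and -0.06 in the 3 pairs, close to the values of Kdr, while Flt4, the receptor of lymphatic endothelium, had -0.05, 0.01 and -0.06.

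**Figure D2:**
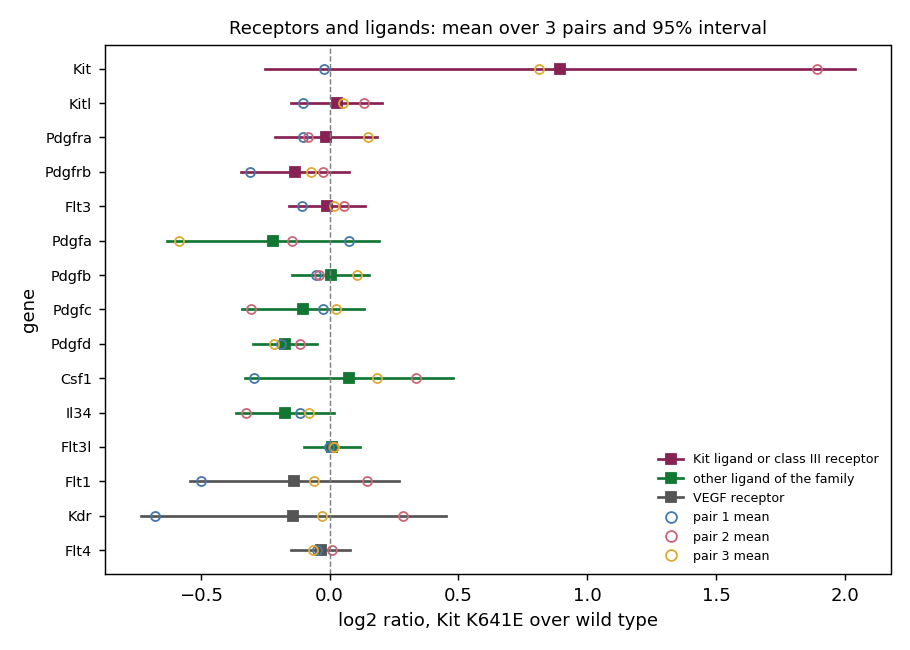
Mean log2 ratio over 3 pairs (squares) with limma's 95% interval (lines) and the pair means (open circles) for the measured members, the 7 other ligands and the 3 receptors for vascular endothelial growth factor. The interval of Kit runs from -0.25 to 2.04, and Pdgfd is the gene whose interval leaves out 0.

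Genes of proteins that bind active class III receptors lay on both sides of 0. Of 21 adaptors and enzymes listed, 18 were measured, with a median of 0.00, 9 above and 9 below 0, and 0 passed over all features. Gab1, a docking protein, had -0.25, -0.04 and -0.30 and Jak2, a kinase, -0.02, -0.39 and -0.28. Grb2, the adaptor that links receptors to Ras, had -0.24, 0.25 and -0.07. The highest mean of the list was that of Pik3ca, a catalytic subunit of phosphoinositide 3-kinase, with -0.23, 0.72 and 0.33, and Ptpn11, the phosphatase SHP-2, had -0.23, 0.26 and 0.27.

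Of 15 proteins that restrain these receptors, 13 were measured, with a median of -0.01, 6 above and 7 below 0, and 0 passed over all features. Ptpn6, the phosphatase SHP-1, which dephosphorylates Kit in blood cells, had 0.14, 0.35 and 0.28 (mean 0.26 ± 0.06, limma SE, n = 3; adjusted p = 0.923). Dok2, an adaptor of blood cells, had 0.13, 0.22 and 0.36, and the ubiquitin ligase gene Cbl 0.01, -0.03 and -0.03. At an unadjusted p under 0.05, 2 genes of this list were above 0 and 0 below, and among the adaptors and enzymes 0 were above 0 and 1 below. Of all features, 2.74% were higher and 2.16% lower at that threshold.

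The named genes whose values lay nearest to Kit were ranked by Euclidean distance, the root of the summed squared differences of log2 ratios over the 6 arrays, among 15122 other named genes. The nearest was Etv1, an ETS transcription factor that Cajal cells express, at a distance of 0.355 and with pair means of 0.08, 1.73 and 0.86 over 3 probes whose means ran from 0.49 to 1.49. Foxf1, a forkhead factor of gut mesenchyme, lay at 0.363 with -0.13, 1.93 and 0.96. Pde9a, a phosphodiesterase that breaks down cyclic GMP, lay at 0.428 with -0.02, 1.89 and 0.84. Next came Rbp4, the plasma carrier of retinol made mainly by the liver, at 0.459 with -0.20, 1.82 and 1.03, and Edn3, the peptide endothelin 3, at 0.477 with 0.20, 1.90 and 0.89.

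The median distance of named genes from Kit was 2.94. By the same measure Kitl lay at 2.72 from Kit, Flt3 at 2.85, Pdgfra at 2.96 and Pdgfrb at 3.02, so none of the other members was among the genes near Kit. The 6 arrays hold 3 pairs of animals, and the 2 arrays of a pair share their RNA, so likeness over them is a description of 3 points. Etv1, Foxf1, Pde9a, Rbp4 and Edn3 each had a limma adjusted p of 0.923, so 0 of these 5 passed.

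**Figure D3:**
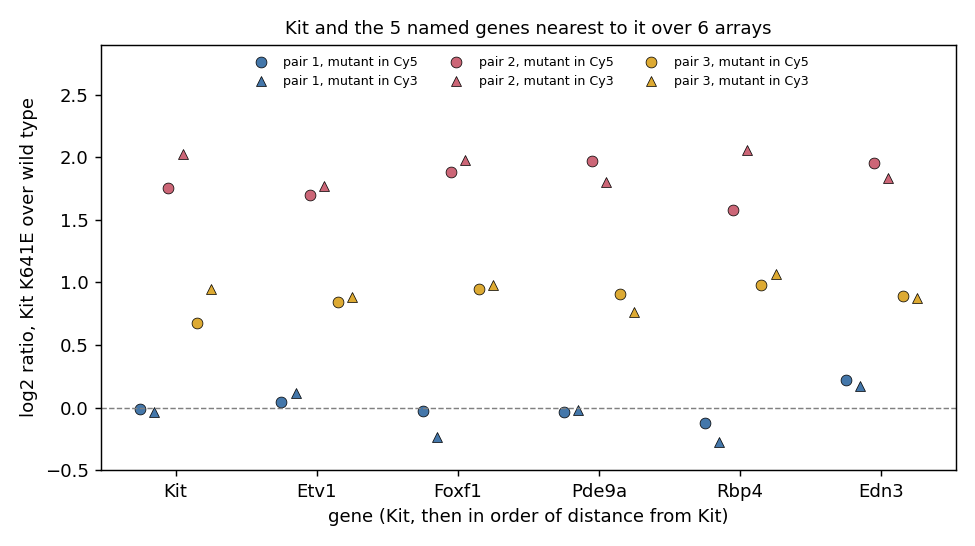
Log2 ratio of the Kit K641E over the wild-type antrum for Kit and its 5 nearest named genes on each array; colours are pairs, circles have the mutant in Cy5 and triangles in Cy3. In all of these genes pair 2 is highest, between 1.58 and 2.06, and pair 1 lowest, between -0.28 and 0.22.

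Kit-bearing cell types were compared with Kit through their markers. Of 12 Cajal cell genes, 11 were measured, and 9 were above 0 on average (52.1% of all features). Above 0 on all 6 arrays were 7 (3.87% of all features). The list medians were 0.20, 1.73 and 0.86 in pairs 1, 2 and 3 beside -0.02, 1.89 and 0.81 for Kit. The median over pairs was 0.89. By limma, 5 genes were higher at an unadjusted p under 0.05 (2.74% of all features), while 0 passed over all features. The list was chosen with earlier results of these data known, so these counts only describe it. Prkcq, protein kinase C theta, had 1.45, 3.14 and 2.66. In pair 1, where Kit was near 0, Prkcq was thus above 1, and Gja1, a gap junction protein, had 0.53, 2.73 and 2.05.

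Some genes of the Cajal cell list did not share Kit's values over the pairs. Ano1, the chloride channel of these cells, had -0.07, -0.17 and -0.08, and Ednrb -0.01, 0.12 and 0.00. Thbs4, thrombospondin 4, had 0.53, 1.04 and 0.29. Hcn4 was not measured. Etv1 and Edn3, named above for their nearness to Kit, belong to this list. The list median was the value of Edn3 in pair 1 and of Etv1 in pairs 2 and 3. Its likeness to Kit thus repeats that ranking and is no separate result.

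The median ratios of marker lists of the other cells that make Kit were near 0 in all pairs, while single markers went either way. The 10 measured mast cell genes had medians of 0.01, -0.03 and -0.03 (0 of 10 passed over all features), and the mast cell carboxypeptidase gene Cpa3 had -0.21, -0.09 and -0.29. Mcpt2, a mast cell protease, had 0.23, 0.12 and 0.29 and Hdc, which makes histamine, -0.20, -0.46 and -0.86. Mcpt1, another mast cell protease, had 0.82, 0.34 and 0.02. The 4 melanocyte genes had medians of -0.01, -0.04 and -0.11, with -0.18, -0.01 and -0.37 for the transcription factor gene Mitf and 0.10, -0.27 and -0.15 for Pmel. The medians of both lists were no higher in pairs 2 and 3, where Kit was, than in pair 1. The part of mast cells and melanocytes in the Kit ratio was not tested. The 2 probes of Mitf gave means of -0.38 and 0.01.

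The median of the liver genes was lowest in pair 1 and highest in pair 2, as Kit was, with Alb at -0.27, 5.58 and 5.14, Apoa2 at 0.57, 3.94 and 3.25 and Fgg at 0.06, 2.89 and 2.41. Ttr, another gene of the list, had 0.10, 0.63 and -0.12, lowest in pair 3. All 12 were above 0 on average (52.1% of all features), with a median of 1.62, and 0 passed over all features. Rbp4, one of the genes near Kit, is in that list. The medians of the smooth muscle, fibroblast, pericyte and fibroblast-like cell lists, given below, had the same order over the pairs. The part of the liver transcripts, and of the difference in Y-linked transcripts in pair 3, in the Kit ratio was not tested.

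**Figure D4:**
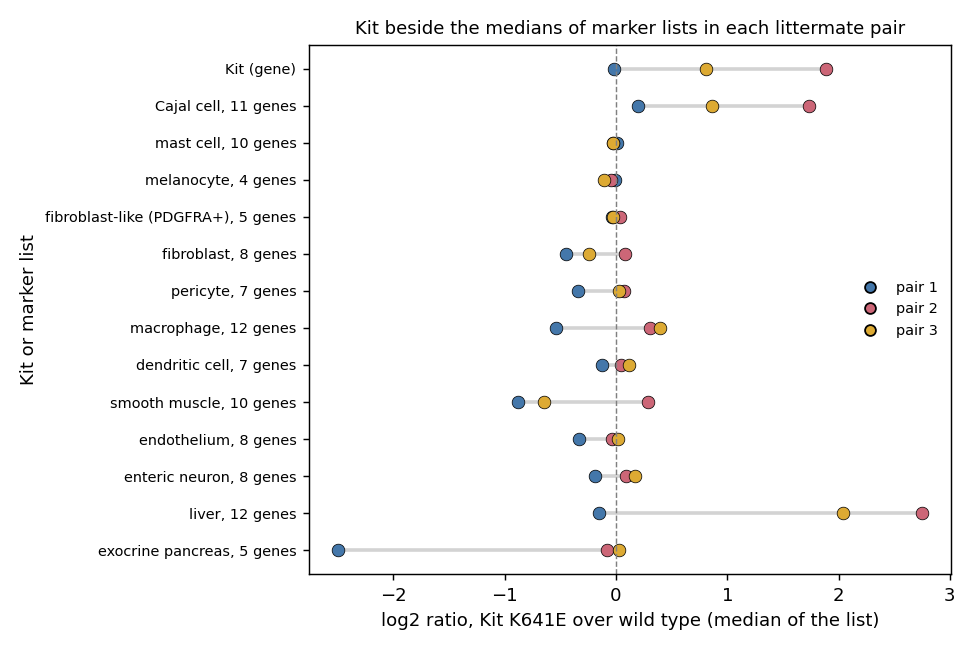
Kit (top) and the medians of marker lists in each of the 3 littermate pairs, as log2 ratios of the Kit K641E over the wild-type antrum; each point is a pair and the grey bar joins the lowest and the highest. The Cajal cell and liver lists are highest in pair 2 and lowest in pair 1, as Kit is. The smooth muscle, fibroblast, pericyte and fibroblast-like lists have that order too. The mast cell and melanocyte lists stay between -0.11 and 0.01. The Cajal cell points are the values of Edn3 (pair 1) and Etv1 (pairs 2 and 3), which were ranked as near to Kit in these same values.

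For the cells that carry the other receptors, all list medians were lowest in pair 1, by little for the fibroblast-like cells. The 5 genes of fibroblast-like cells that express Pdgfra had medians of -0.04, 0.04 and -0.03 in the 3 pairs beside -0.10, -0.09 and 0.15 for Pdgfra. Among them Kcnn3, the potassium channel of these cells, had 0.00, -0.10 and 0.14, Cd34 -0.56, 0.04 and -0.36 and Grem1 -0.06, -0.11 and -0.13. The 8 fibroblast genes had medians of -0.45, 0.08 and -0.25, with -0.66, -0.38 and -0.48 for decorin, Dcn, and -0.68, 0.01 and -0.42 for dermatopontin, Dpt.

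The 7 pericyte genes had medians of -0.34, 0.07 and 0.03, beside -0.31, -0.02 and -0.07 for Pdgfrb. The pericyte genes Rgs5 and Cspg4 had 0.61, 0.43 and -0.01 and -0.38, -0.09 and -0.22. The 7 dendritic cell genes besides Flt3 had medians of -0.12, 0.04 and 0.12, beside -0.11, 0.06 and 0.02 for Flt3 itself. Itgax, the integrin CD11c, had -0.24, 0.10 and 0.38, Irf8 -0.28, -0.05 and -0.25 and Batf3 -0.13, 0.29 and 0.48. With Csf1r unmeasured, the 12 macrophage genes stand alone, with medians of -0.54, 0.30 and 0.39. The macrophage marker Adgre1 had -0.52, 0.35 and 0.24, Mrc1 0.21, 0.26 and 0.38 and Mertk -0.23, -0.17 and -0.35.

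The ratios of marker genes of the tissues that supply Kit ligand also differed between pairs. The 10 smooth muscle genes had medians of -0.88, 0.29 and -0.65, with -1.63, 0.43 and -0.70 for the myosin gene Myh11, -0.32, -0.35 and -0.52 for Lmod1 and -1.41, 0.22 and -0.73 for Smtn. The 8 enteric neuron genes had -0.19, 0.09 and 0.17, with 0.18, 0.55 and 0.95 for Vip, 0.14, 0.09 and 0.09 for Nos1 and -0.43, 0.17 and 0.11 for Elavl4. The 8 endothelial genes had -0.34, -0.04 and 0.02, with -0.12, 0.14 and 0.14 for Cdh5, -0.20, -0.21 and -0.16 for Tie1 and -0.54, -0.14 and -0.45 for Esam. Of these lists of fibroblast-like cells, fibroblasts, pericytes, dendritic cells, macrophages, smooth muscle, neurons and endothelium, 0 genes passed over all features. Their part in the ratios of the members was not tested.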

How the data were processed

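The authors deposited 1 table of 38467 probes on 6 arrays with no missing value. The deposited values were taken to be log2 ratios of the channels that the authors had made and centred: they are signed, reach 5.831, where log10 ratios of a 16-bit scanner end at 4.82, and have array medians between -0.003 and 0.004. Base 2 is assumed; on a natural log the Kit ratio would be 2.44-fold. Not given in the sources used here are the scanner, the background correction and the normalization. Per the labels' protocols, RNA was amplified as aminoallyl antisense RNA and coupled to Cy5 or Cy3. Across probes, the dye-swapped arrays correlated at -0.61 in pair 1, -0.74 in pair 2 and -0.83 in pair 3 before the mutant-in-Cy3 arrays were turned.

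The platform annotation gave a symbol to 22941 probes (59.6%), and all 22941 gene identifiers matched RefSeq. Probes of a gene were averaged, then the arrays of a pair. With limma 3.58.1 in R 4.3.3 it was tested whether the mean of the 3 pairs differed from 0 (lmFit, eBayes, Benjamini-Hochberg over 30649 features, threshold 0.05). A check on simulated data asked only whether known mean shifts were recovered. The error rate of the test was not checked. The labels pair the animals as littermates, so the pairing is the design itself. Intensities were not used here, and the number of pairs, 3, limits the precision.

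The genes and lists were chosen with earlier results of these data known. Named are the members, the 5 genes nearest to Kit, the ligands and related receptors, and from each list its first gene and the 2 with the lowest p. Outside this rule Spry4, Tpbg, Gja1, Ednrb, Chic2, Lnx1, Mcpt1, Pik3ca, Ptpn11 and Ttr were named after their values were seen. Alternatives were other probe summaries, scalings, dye orientations, moderation, a pair block and leaving out each pair.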

Additional observations from a re-analysis of the deposited data

Results flagged for a closer look

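Of 87 genes and list medians examined over the 6 arrays, 2 had 1 array far from the other 5. On the array of pair 1 that held the mutant in Cy3, Csf1 lay at -0.735, against 0.152 to 0.363 on the others. Cbl lay at 0.056 on the same array, against -0.044 to -0.007 on the others. Chance sets 1 value apart in about 1 in 20 groups of independent samples, and the 2 arrays of a pair are not independent.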

How the results depend on the processing

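Kit kept its sign under all 13 alternatives, from 0.40 to 1.35 with 1 pair left out, and its adjusted p ran from 0.467 to 1.00. Pdgfrb kept its sign too, from -0.19 to -0.05 with 1 pair left out. Kit and Pdgfrb had 1 probe each, so other probe summaries could not change their estimates. Robust moderation, the restriction to named genes and the pair block could not change them either. Kitl turned to -0.071 for probe mMA033538 alone and to -0.026 with the mutant in Cy5 only, and ran from -0.026 to 0.092 with 1 pair left out. Pdgfra turned to 0.082 with the mutant in Cy3 only and ran from -0.094 to 0.032 with 1 pair left out. Flt3 turned to 0.047 with the mutant in Cy5 only and ran from -0.046 to 0.037 with 1 pair left out. The cause of these turns was not tested. Kit minus Kitl ran from 0.42 to 1.26 and Kit minus Pdgfra from 0.37 to 1.32 with 1 pair left out, and neither turned sign. No member passed under any alternative run. Over all features 2 were called higher and 0 lower. The count of higher features was 0 with each probe on its own, with arrays scaled to a common spread, with the mutant in Cy5 only and with any 1 pair left out, and 1 with quantile normalization and with the mutant in Cy3 only. With the pair as a random block over 6 arrays it was 10 higher and 5 lower. Kit had 0.81 with the mutant in Cy5 only and 0.98 with the mutant in Cy3 only. Without intensities, no filter on dim probes could be run.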
